A study of Mus musculus with 6 samples.

Results

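The 2′-5′-oligoadenylate synthetase (OAS) family was followed in RNA-Seq of mouse bone marrow-derived macrophages (BMDM) with and without PP2Ac, the catalytic subunit of protein phosphatase 2A. Members were the 8 rows of the count table named *Oas1a*, *Oas1b*, *Oas1c*, *Oas1g*, *Oas2*, *Oas3*, *Oasl1* and *Oasl2*, of 55453 gene symbols in all, and 8 of 8 were among the 13680 genes that passed the filter on low counts. The 3 PP2A KO libraries (PP2Ac-KO) came from LysMcre PP2Ac fl/fl mice, in which cre under the Lysozyme 2 promoter removes a floxed exon of *Ppp2ca* from myeloid cells, and 3 libraries (PP2Ac-WT) came from Wild Type mice, both on the C57BL/6 background. By the study's methods, the LysMcre PP2Ac fl/fl mice came from the University of Michigan and Wild Type mice from The Jackson Laboratory. Loss of PP2Ac therefore cannot be told apart from colony of origin or from the presence of cre. The labels give neither age nor treatment. Both groups were taken as stimulated with the STING agonist cGAMP, because the study describes cGAMP-treated BMDM for its RNA-Seq, so no unstimulated level is known here. The study's general statement for cell-based experiments is that replicates were biological triplicates. Whether these libraries came from separate mice is not given in the sources used here, and p-values measure only the spread between them.

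OAS enzymes sense double-stranded RNA. Once bound to it, they join ATP into 2′-5′-linked oligoadenylates (2-5A), a second messenger of the antiviral response. The genes are a classic part of the response to type I IFN, whose receptor sends a factor complex that includes STAT2 and IRF9 to the IFN-stimulated response element (ISRE) in their promoters. OASL proteins carry ubiquitin-like domains behind the OAS fold. OASL1 is known to bind *Irf7* mRNA and hold back its translation, and OASL2 to bind the DNA sensor cGAS.

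The libraries held 35257156 to 47390899 counts on genes. *Ppp2ca*, the deleted gene, had 33 to 47 counts per PP2Ac-KO library and 8279 to 10654 per PP2Ac-WT library. The 6 macrophage markers listed (*Adgre1*, *Csf1r*, *Cd68*, *Itgam*, *Fcgr1*, *Mertk*) were detected in each library, with a summed level of 7286 to 7474 counts scaled to library size (CPM) in PP2Ac-KO and 6162 to 6794 CPM in PP2Ac-WT. Of these, *Fcgr1* rose in PP2Ac-KO (log2 fold change 0.70). *Mertk* passed the test (log2 fold change 0.27, edgeR adjusted p = 0.0398) but not under upper-quartile scaling (0.0671), with library totals as the only scaling (0.559), or without any 1 of 5 libraries, all but PP2Ac-WT replicate 1 (0.0509 to 0.138). The 4 fibroblast markers (*Col1a1*, *Col1a2*, *Col3a1*, *Dcn*) were lower in PP2Ac-KO in 4 of 4 cases, against 19.0% of the genes that passed the filter. Their summed level was 22.7 to 33.4 CPM in PP2Ac-KO against 74.9 to 117.7 CPM in PP2Ac-WT. Fewer cells of a type and less RNA per cell cannot be told apart in bulk RNA. The 4 neutrophil markers summed to at most 0.906 CPM in a library, with *Ly6g* and *Retnlg* at 0 counts, the 4 T and NK cell markers to at most 0.189 CPM, with *Cd8a* at 0, the 3 B cell markers to at most 1.34 CPM, and the 4 dendritic cell markers to at most 2.21 CPM. Among these, *Siglech* was higher in PP2Ac-KO (20 to 29 counts against 12 to 17). The part of any of these cells in the OAS levels was not tested.

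In GRCm38 (mm10), the 8 genes lie on chromosome 5 in 2 groups. *Oasl2* (114896936-114912234) and *Oasl1* (114923240-114937915) follow each other on the forward strand, 11005 bp apart. The second group starts 5792417 bp further on with *Oas2* (120730333-120749853) and *Oas3* (120753098-120777661) on the reverse strand, followed by *Oas1c* (120800194-120812514, reverse), *Oas1b* (120812635-120824163, forward), *Oas1g* (120876142-120887613, reverse) and *Oas1a* (120896256-120907521, reverse). Between them lie *Oas1e*, *Oas1f* and *Oas1h*, and *Oas1d* lies beyond *Oas1a*. *Oas1b* is the flavivirus resistance gene of mice. Most laboratory strains carry a premature stop codon in it, and GENCODE M21 lists it as a polymorphic pseudogene and the other 7 members as protein coding. *Oas1c* and *Oas1b* run away from each other from starts 121 bp apart, so that 1 stretch of 120 bases is upstream of both.

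The bases before the transcription start are shown because ISRE letters sit at nearly the same place in 3 of the *Oas1* genes. Each line gives 120 bases, 5′ to 3′ on the gene's strand, from RefSeq's promoter sequences of GRCm38.p6, with ISRE letters (TTTC, 2 bases of any kind, then TTTC, on either strand) in capitals. The *Oas1b* line is the whole gap between *Oas1c* and *Oas1b*, cut from the *Oas1c* sequence, and the others end at the base before RefSeq's start.
*Oas1a*, chr5:120907526-120907645, reverse strand: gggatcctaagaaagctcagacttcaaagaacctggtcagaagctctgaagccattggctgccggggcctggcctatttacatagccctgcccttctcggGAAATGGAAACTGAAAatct
*Oas1g*, chr5:120887614-120887733, reverse strand: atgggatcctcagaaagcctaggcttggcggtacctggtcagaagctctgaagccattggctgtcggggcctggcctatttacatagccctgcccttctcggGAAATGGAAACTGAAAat
*Oas1b*, chr5:120812515-120812634, forward strand: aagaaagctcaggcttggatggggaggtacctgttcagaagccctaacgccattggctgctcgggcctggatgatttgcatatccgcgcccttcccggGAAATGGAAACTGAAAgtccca
*Oas3*, chr5:120777660-120777779, reverse strand: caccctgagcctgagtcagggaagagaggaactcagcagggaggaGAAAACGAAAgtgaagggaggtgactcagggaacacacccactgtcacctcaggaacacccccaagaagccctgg
*Oasl1*, chr5:114923120-114923239, forward strand: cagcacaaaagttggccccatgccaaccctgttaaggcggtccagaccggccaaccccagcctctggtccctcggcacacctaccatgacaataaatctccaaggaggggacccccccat

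The same 16 letters, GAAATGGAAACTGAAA, ended 9 bp before the GENCODE start of *Oas1a*, 3 bp before that of *Oas1g* and 7 bp before that of *Oas1b*. They hold 2 overlapping ISRE matches. Read toward *Oas1c*, the run in the shared gap lies 99 to 114 bp before the start and on the opposite strand. The run was noticed when the sequences were read. It occurs in 7 of RefSeq's 32851 windows of 250 bases before a start (0.0213%), those of *Oas1a*, *Oas1g*, *Oas1c*, *Apol9a* and *Apol9b*. By global alignment, 108 of the 120 bases were identical between *Oas1a* and *Oas1g* (90%), and 92 between *Oas1a* and *Oas1b* (76.7%).

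RefSeq's table held 250-base windows for 6 of the 8 members, without *Oas1b* and *Oas2*. The ISRE letters were present in those of *Oas1a*, *Oas1g*, *Oas1c* and *Oas3* (4 of 6), against 2.98% of all windows. The window of *Oas3* held 1 match, 66 to 75 bp before the start, and those of *Oasl1* and *Oasl2* held none. The GAS letters TTCNNNGAA, the IFN-gamma-activated site, were found in the window of *Oas1a* 90 to 98 bp before the start, and in 7.02% of all windows. A match describes the letters and not a bound site. Only these exact letters in 250 bases were searched, so a window without a match does not show that an element is absent.

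**Figure D1:**
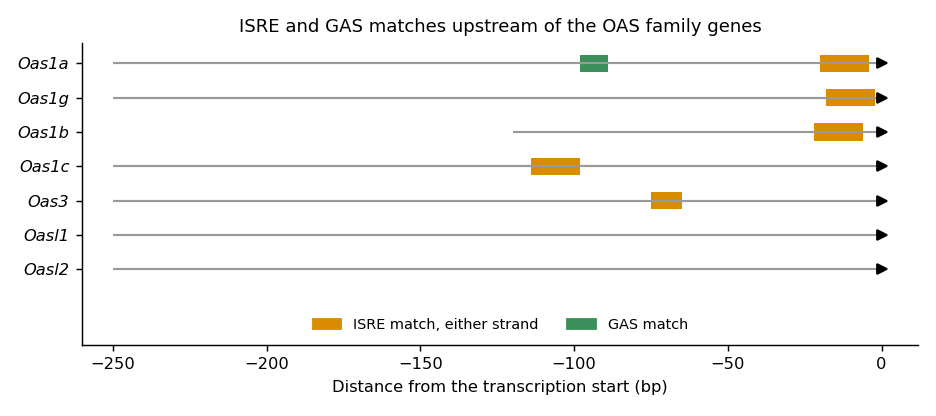
Positions of ISRE letters (TTTC, 2 bases, TTTC, either strand) and GAS letters (TTCNNNGAA) before the start of 7 members, with the distance from the start in bp on the x axis. Lines show the 250 bases searched (for *Oas1b* the 120 bases shared with *Oas1c*), and the ISRE bars of *Oas1a*, *Oas1g* and *Oas1b* end 3 to 7 bp before the start, which is RefSeq's for *Oas1a* and *Oas1g* and GENCODE's for *Oas1b*.

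PP2Ac-KO BMDM had more OAS RNA. Each of the 8 members rose (8 of 8 at FDR under 0.05, against 18.1% of the 13680 genes tested that were higher), 0 fell (against 19.0% that were lower), and for each one the 3 PP2Ac-KO libraries lay above the 3 PP2Ac-WT libraries, as they did for 24.0% of genes tested, while 26.8% had the PP2Ac-KO libraries below. The median log2 fold change of the members was 0.98, and that of all genes tested was -0.02. At the study's thresholds for upregulated genes (log2 fold change over 1, FDR under 0.01), 3 members passed, *Oasl1*, *Oas1g* and *Oas3*, and 3.36% of genes tested did. *Oas1a*, *Oasl2* and *Oas2* lay just under a log2 fold change of 1, and the number that passed was 6 without PP2Ac-WT replicate 1 and 5 without PP2Ac-KO replicate 3. It was 4 under RLE scaling and with DESeq2, where *Oas1a* was at a log2 fold change of 1.01. The number was 2, with *Oas3* below the fold threshold, without PP2Ac-KO replicate 1, without PP2Ac-WT replicate 3 and with library totals as the only scaling. Summed over the 8 genes, the family took 5323, 4847 and 4521 CPM in the PP2Ac-KO libraries and 2625, 2168 and 1803 CPM in the PP2Ac-WT libraries. Adjusted p-values of genes are from edgeR's quasi-likelihood test, adjusted over the genes tested.

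*Oasl1* changed most of the 8. This OAS-like protein lacks synthetase activity and is known as a brake on IRF7. It had 1479.6, 1363 and 1180.5 CPM in the PP2Ac-KO libraries and 521, 437 and 344 CPM in the PP2Ac-WT libraries. The lowest PP2Ac-KO library was far above the highest PP2Ac-WT library. The log2 fold change was 1.63 (SE 0.15, edgeR adjusted p = 9.73e-05), or 3.09-fold. *Oasl2*, which unlike OASL1 keeps synthetase activity, had the most counts of the family, with 1563, 1441 and 1397 CPM in PP2Ac-KO, against 904, 734 and 601 CPM in PP2Ac-WT. The groups lay apart, and the PP2Ac-WT libraries spread more widely than the PP2Ac-KO libraries. Its log2 fold change was 0.97 (SE 0.13, edgeR adjusted p = 5.72e-04).

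*Oas3* has 3 OAS units in its protein, of which the last is active. It was counted at 1193, 1009 and 974 CPM in PP2Ac-KO, against 622, 480.5 and 397 CPM in PP2Ac-WT. No value was shared between the groups, although the PP2Ac-WT libraries differed by up to 1.57-fold. The log2 fold change was 1.08 (SE 0.15, edgeR adjusted p = 6.67e-04). *Oas2*, with a pair of OAS units and a myristoylated protein, had 453, 414 and 400.2 CPM in PP2Ac-KO, against 241, 220.1 and 196 CPM in PP2Ac-WT. The lowest PP2Ac-KO library was well above the highest PP2Ac-WT library. The log2 fold change was 0.95 (SE 0.09, edgeR adjusted p = 1.19e-04).

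The 4 *Oas1* members spread more widely than the rest. *Oas1a*, an active synthetase, had 345, 333 and 312 CPM in PP2Ac-KO, against 190.2, 163 and 148 CPM in PP2Ac-WT, a log2 fold change of 0.98 (SE 0.10, edgeR adjusted p = 1.36e-04). *Oas1g*, the other active enzyme of this branch, had 201, 197 and 171 CPM in PP2Ac-KO, against 85.3, 74.1 and 55.0 CPM in PP2Ac-WT. The groups lay far apart, and the log2 fold change was 1.41 (SE 0.14, edgeR adjusted p = 1.58e-04). Of the windows of 50 bases in *Oas1a* transcripts, 57.6% also occur in *Oas1g*, and 45.3% of those in *Oas1g* occur in *Oas1a*. Reads from these windows could have been divided or dropped in counting, and the separate values of this pair are uncertain. For *Oas1b*, *Oas1c*, *Oas2*, *Oas3*, *Oasl1* and *Oasl2*, the share of windows found in another gene of the family was at most 9.83% (*Oas1c*).

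*Oas1b* and *Oas1c*, the divergent pair, changed least. *Oas1b* had 60.3, 62.9 and 60.8 CPM in PP2Ac-KO, against 43.4, 44.6 and 47.2 CPM in PP2Ac-WT, a log2 fold change of 0.44 (SE 0.06, edgeR adjusted p = 4.72e-04). *Oas1c*, a paralog with no known synthetase activity, was the least counted member, with 27.0, 26.7 and 26.1 CPM in PP2Ac-KO, against 17.4, 15.04 and 15.2 CPM in PP2Ac-WT. Both had narrow groups that lay apart. The log2 fold change of *Oas1c* was 0.74 (SE 0.07, edgeR adjusted p = 1.40e-04). An annotated antisense gene, *Gm43069*, overlaps 227 exonic bases of *Oas1c* and had 0 to 10 counts per library.

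The other *Oas1* paralogs were near the limit of detection, which was taken as 3 counts (0.0604 to 0.0909 CPM, counting error only). *Oas1d*, an oocyte gene, had 2 or 3 counts per PP2Ac-KO library and 1 or 2 per PP2Ac-WT library. *Oas1e* had 0 to 3 and 0 to 1 counts, and *Oas1f* and *Oas1h* had 0 counts in every library. These 4 genes did not pass the filter and no fold change was computed. Along the locus, these genes lie between and beside expressed members.

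**Figure D2:**
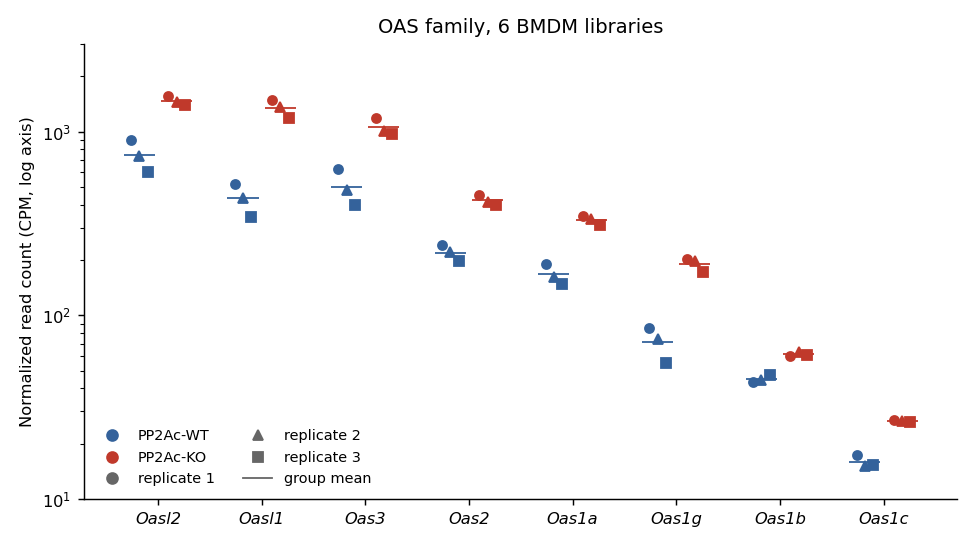
Normalized read counts (CPM, log axis) of the 8 members in each of the 6 libraries, with symbols for the replicate number and lines for group means. The 3 PP2Ac-KO points of each gene lie above its 3 PP2Ac-WT points, from 1180.5 against 521 CPM in *Oasl1* to 60.3 against 47.2 CPM in *Oas1b* for the nearest points.

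**Figure D3:**
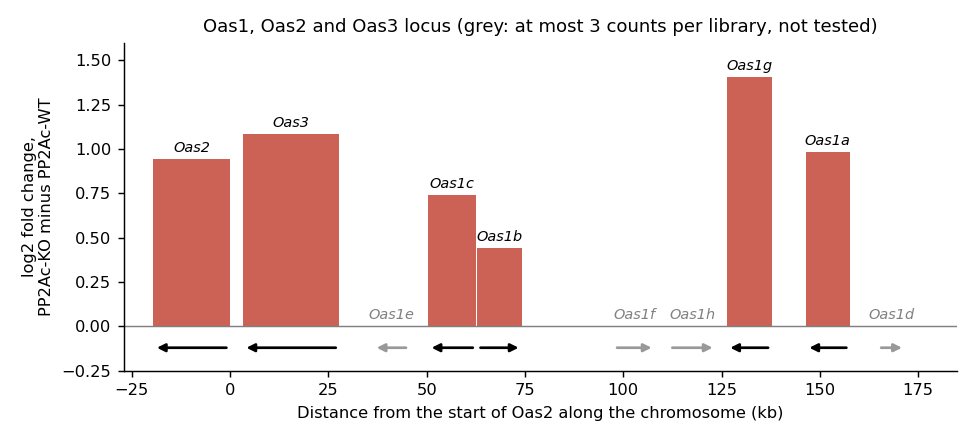
Log2 fold changes of the *Oas1*, *Oas2* and *Oas3* genes (bar height, PP2Ac-KO minus PP2Ac-WT) over each gene's span, as distance in kb from the start of *Oas2*, with arrows for the direction of transcription. *Oas1g* has the highest bar (1.41) and *Oas1b* the lowest (0.44), and the 4 genes in grey had at most 3 counts per library.

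Within groups, the libraries of most members fell in the same order. The highest PP2Ac-WT library was replicate 1 for 7 of the 8 members and, in *Oas1b*, replicate 3. In PP2Ac-KO, replicate 1 was again highest for 7 and replicate 2 for *Oas1b*, whose lowest library was replicate 1 in both genotypes. The coefficient of variation in PP2Ac-WT was between 20.3% and 22.8% for *Oas1g*, *Oas3*, *Oasl1* and *Oasl2*, 13.0% for *Oas1a*, 10.2% for *Oas2*, 8.11% for *Oas1c* and 4.27% for *Oas1b*. In PP2Ac-KO it was lower for each member, from 1.74% in *Oas1c* to 11.2% in *Oasl1*. In PP2Ac-WT, the member that changed least between genotypes, *Oas1b*, was also the least variable.

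Levels of different genes were compared per kilobase of exon. In PP2Ac-KO, *Oasl1* was first with 514 ± 57.8 CPM per kb (SD, n = 3), followed by *Oasl2* (230.2 ± 13.5), *Oas1a* (175 ± 9.04), *Oas3* (149.8 ± 16.7), *Oas2* (94.9 ± 6.12), *Oas1g* (81.1 ± 6.99), *Oas1b* (30.8 ± 0.714) and *Oas1c* (11.1 ± 0.192). The ranges of *Oas1a* and *Oas3* overlapped, and those of the other neighbors in this order did not. The order of means was the same in PP2Ac-WT, from 166 ± 33.9 for *Oasl1* to 6.6 ± 0.535 for *Oas1c*. There the ranges of *Oasl1*, *Oasl2*, *Oas1a* and *Oas1g* each overlapped that of the next gene. Compared within a library, *Oasl1*, *Oasl2* and *Oas1a* each lay above the next gene in 3 of 3 PP2Ac-WT libraries, and *Oas1g* in 2 of 3. In PP2Ac-KO, *Oas1a* lay above *Oas3* in 3 of 3 libraries. Lengths were the union of annotated exons. Reads from windows shared by *Oas1a* and *Oas1g* could have been divided or dropped, so the places of these genes in the order are uncertain. With the length of the longest transcript, a setting chosen after the data were seen, *Oasl2* came before *Oasl1* in PP2Ac-WT (239 ± 48.6 against 199 ± 40.6 CPM per kb, with overlapping ranges) but after it in PP2Ac-KO (469.8 ± 27.6 against 615 ± 69.1). That length also put *Oas3* before *Oas1a*, at 224 against 175 CPM per kb in PP2Ac-KO with ranges apart, and at 106 against 88.5 in PP2Ac-WT with overlapping ranges. With it, *Oasl2* lay above *Oasl1*, and *Oas3* above *Oas1a*, in 3 of 3 PP2Ac-WT libraries.

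The makeup of the family within a library does not depend on how libraries are scaled to each other. *Oasl1* took 40.7%, 40.6% and 38.4% of the summed per-kilobase level per PP2Ac-KO library, against 30.7%, 30.7% and 28.8% per PP2Ac-WT library, a difference of 9.85 percentage points. *Oas1g* also took a larger share in PP2Ac-KO, 6.3% ± 0.194 against 5.51% ± 0.342 (SD, n = 3). The other 6 took smaller shares, with *Oasl2* at 17.9% ± 0.582 against 21.2% ± 0.623, *Oas1a* at 13.6% ± 0.447 against 16.1% ± 0.84 and *Oas1b* at 2.4% ± 0.213 against 4.21% ± 0.914 (SD, n = 3). The groups did not overlap for any of the 8 shares. Those of *Oas1a* and *Oas1g* are uncertain because of the windows these genes share. The shares sum to the whole, so a larger share of *Oasl1* lowers the others although each of these genes rose, and the 8 are not separate comparisons. For *Oasl1*, the exact permutation p (two-sided) was 0.1, the smallest that 3 against 3 libraries allow.

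Ratios of related genes give the same comparison in pairs. *Oasl1* had 2.23 ± 0.142 times the per-kilobase level of *Oasl2* in PP2Ac-KO and 1.42 ± 0.0307 times in PP2Ac-WT (SD, n = 3). The size of these ratios depends on the length used, here the union of exons. With the longest transcript, *Oasl1* lay below *Oasl2* in PP2Ac-WT (199 against 239 CPM per kb). In PP2Ac-KO it lay above *Oasl2* with that length too (615 against 469.8 CPM per kb). With the union of exons, the ratio of *Oas1g* to *Oas1a* was 0.463 ± 0.0178 in PP2Ac-KO and 0.343 ± 0.0371 in PP2Ac-WT. In the same order, that of *Oas1c* to *Oas1b* was 0.359 ± 0.0107 and 0.292 ± 0.0339, and that of *Oas3* to *Oas2* was 1.58 ± 0.0727 and 1.42 ± 0.181. The groups lay apart for the first 3 ratios (exact permutation p = 0.1 for each, 0.133 adjusted over 4) and overlapped for *Oas3* to *Oas2* (exact permutation p = 0.3). The ratio of *Oas1g* to *Oas1a* is uncertain, as counting may not have separated the reads of their shared windows.

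**Figure D4:**
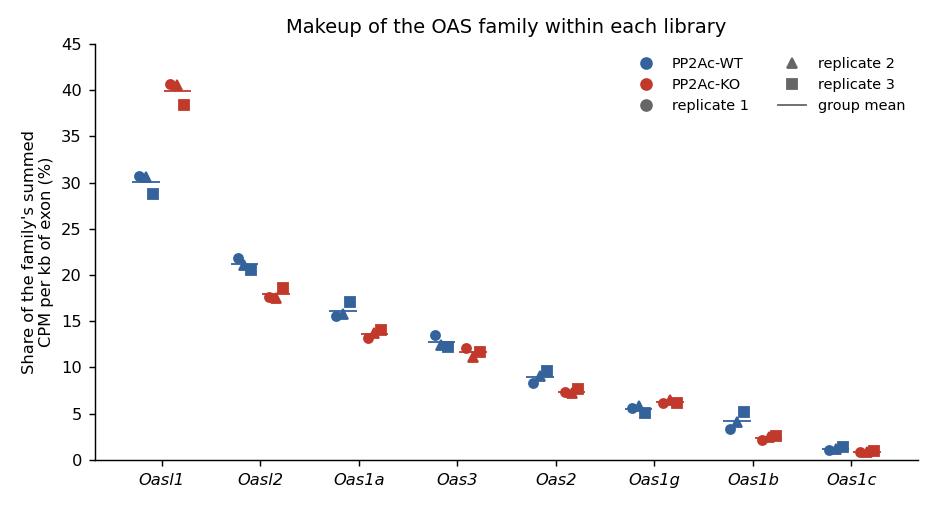
Share of each member in the family's summed level per kb of exon, in percent, in each of the 6 libraries (symbols for the replicate number, lines for group means). *Oasl1* lies between 38.4% and 40.7% in PP2Ac-KO and between 28.8% and 30.7% in PP2Ac-WT, and *Oasl2* lies lower in PP2Ac-KO.

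Of 3 other genes listed for the 2-5A pathway, 0 rose, 1 fell and 2 did not pass the test, with a median log2 fold change of -0.06. Among all genes tested, 18.1% rose and 19.0% fell. *Abce1*, a ribosome recycling factor, fell from 47.6 ± 1.8 to 39.3 ± 2.76 CPM (SD, n = 3), with a log2 fold change of -0.28 (edgeR adjusted p = 0.0115). The enzymes that degrade 2-5A had log2 fold changes of -0.06 (*Pde12*, edgeR adjusted p = 0.481) and -0.01 (*Akap7*, edgeR adjusted p = 0.933).

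Of 7 other effectors and sensors of cytosolic RNA, 6 rose and 1 fell, against 18.1% and 19.0% of genes tested. Their median log2 fold change was 0.79. *Eif2ak2*, which encodes the RNA-activated kinase PKR, had 480.8 ± 28.4 CPM in PP2Ac-KO, against 277 ± 60.0 CPM in PP2Ac-WT (SD, n = 3), with a log2 fold change of 0.79 (edgeR adjusted p = 0.00166). *Ifih1* (MDA5), *Ddx58* (RIG-I) and *Dhx58* (LGP2), the RNA helicase sensors, had log2 fold changes of 1.01, 0.96 and 0.83 (edgeR adjusted p = 6.23e-04, 7.76e-04 and 3.94e-04). *Adar*, which edits double-stranded RNA, and *Zc3hav1*, the antiviral zinc-finger protein ZAP, rose by log2 fold changes of 0.76 and 0.47 (edgeR adjusted p = 8.51e-04 and 0.00293). *Mavs*, the adaptor of the helicases, fell from 44.9 ± 3.49 to 32.9 ± 1.06 CPM (SD, n = 3), with a log2 fold change of -0.45 (edgeR adjusted p = 0.0012).

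Of 10 genes that control OAS transcription, 7 rose (against 18.1% of genes tested), 0 fell (against 19.0%) and 3 did not pass the test. Their median log2 fold change was 0.46. The ligand gene *Ifnb1* and *Irf7*, the factor that amplifies type I IFN, had log2 fold changes of 1.32 and 1.53 (edgeR adjusted p = 0.002 and 9.07e-05). *Stat2* and *Irf9*, of the ISRE-binding complex, rose by 0.65 and 0.28 on the log2 scale (edgeR adjusted p = 7.62e-04 and 0.00697). *Irf1*, which can also bind the ISRE, and the receptor kinase gene *Tyk2* rose by 0.64 and 0.71 on the log2 scale (edgeR adjusted p = 2.80e-04 and 2.30e-04). For the receptor chains, the log2 fold changes were 0.23 in *Ifnar2* (edgeR adjusted p = 0.0129) and 0.19 in *Ifnar1* (edgeR adjusted p = 0.0565, or 0.00222 in the blocked fit). *Jak1* had a log2 fold change of 0.14 (edgeR adjusted p = 0.181, or 0.0176 in the blocked fit), and *Irf3*, which STING activates, of -0.05 (edgeR adjusted p = 0.636).

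The 3 genes of proteins that OASL proteins act on or beside rose in 3 of 3 cases, against 18.1% of genes tested. *Irf7* was also counted among the genes that control OAS transcription. *Irf7*, whose mRNA OASL1 binds, had 605 ± 119 CPM in PP2Ac-WT and 1744 ± 139.5 CPM in PP2Ac-KO (SD, n = 3), a 2.88-fold change next to the 3.09-fold change of *Oasl1*. *Cgas*, the sensor that OASL2 binds, and *Tmem173*, which encodes STING, had log2 fold changes of 0.39 and 0.35 (edgeR adjusted p = 0.00244 and 0.00754). With library totals as the only scaling, *Cgas*, *Tmem173*, *Irf9* and *Ifnar2* no longer passed the test (edgeR adjusted p = 0.0501, 0.209, 0.387 and 0.849). *Ifnar2* also missed it under upper-quartile scaling (edgeR adjusted p = 0.0586) and without PP2Ac-KO replicate 2 (edgeR adjusted p = 0.056). *Ifnar1* passed it under RLE scaling (edgeR adjusted p = 0.0464) and with DESeq2 (DESeq2 adjusted p = 0.0313). Without PP2Ac-WT replicate 1, both *Ifnar1* and *Jak1* passed it (edgeR adjusted p = 0.0201 and 0.0224).

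**Figure D5:**
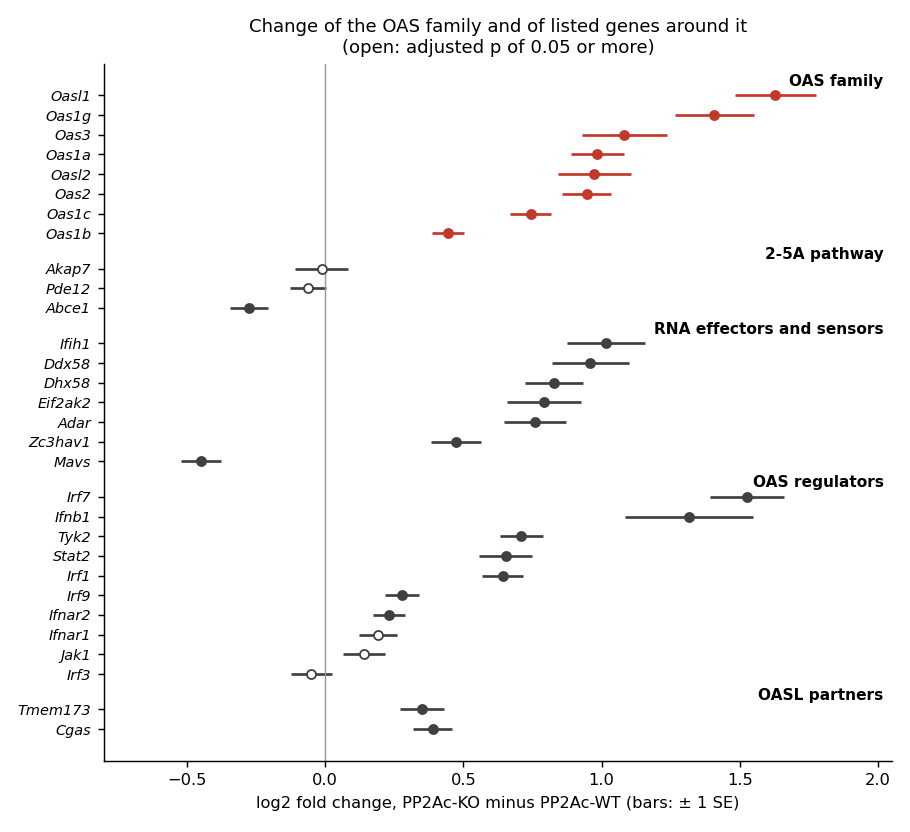
Log2 fold changes (PP2Ac-KO minus PP2Ac-WT, bars of 1 standard error) of the 8 members and of the listed genes of the 2-5A pathway, RNA effectors and sensors, OAS regulators and OASL partners. The members run from 0.44 (*Oas1b*) to 1.63 (*Oasl1*), and open points mark genes with an adjusted p of 0.05 or more, such as *Irf3* at -0.05.

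Genes beside the OAS loci were read from the same fit. Of 25 other genes of the table within 100 kb of a member, 13 had no count in any library and 6 were tested, of which 1 rose and 2 fell, against 18.1% and 19.0% of all genes tested. *Gm13822*, an antisense RNA gene whose annotated span overlaps the first 38 bases of *Oasl1*, had 10.5, 10.2 and 10.2 CPM in PP2Ac-KO, against 5.86, 4.87 and 4.79 CPM in PP2Ac-WT. These groups lay apart, with a log2 fold change of 0.99 (SE 0.10, edgeR adjusted p = 1.60e-04). How strand was handled in counting is not given in the sources used here, so reads of *Gm13822* and of the overlapped end of *Oasl1* may not be told apart. *2210016L21Rik*, on the other side of *Oasl1*, fell from 26.4 ± 2.17 to 16.9 ± 1.74 CPM (SD, n = 3), with a log2 fold change of -0.65 (edgeR adjusted p = 7.69e-04). *Sppl3* had a log2 fold change of -0.21 (edgeR adjusted p = 0.0125, and 0.0506 without PP2Ac-WT replicate 2). *1500011B03Rik* did not pass the test (log2 fold change -0.19, edgeR adjusted p = 0.0829, or 0.0253 in the blocked fit), but passed it as lower under upper-quartile scaling (edgeR adjusted p = 0.0408) and with library totals (0.00449), where *Ankrd13a* did too (0.00513). *Dtx1* and *Rph3a*, other coding genes beside the loci, had at most 5 counts in a library.

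The genes outside the family whose log2 CPM followed the mean of the 8 standardized members most closely over the 6 libraries were *Inpp5k*, *Csrp1*, *Phc2*, *Myd88* and *Irf7*, with Pearson correlations of 0.9996 to 0.9997. Their log2 fold changes were 0.40, 0.70, 0.91, 1.03 and 1.53. The 6 points fall into 2 genotypes and share library and scaling, so these values take in the gap between genotypes. The genes were picked for having the highest correlations among the genes tested.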

How the data were processed

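RNA-Seq of poly(A) RNA from BMDM in 6 libraries (directional kit, paired ends) was used. The authors deposited 1 table of read counts per gene symbol and library, without normalization. The submitters' processing notes name mm10, fastp 0.20.0, kallisto 0.46.1, STAR 2.7.1a, HTSeq 0.11.2, edgeR 3.34.0 and limma 3.48.3. Their roles, the annotation and the strand setting are not given in the sources used here. Of the symbols, 98.3% occur in GENCODE M21, used for positions and lengths. PCR copies were counted as reads.

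Groups and replicate numbers came from the sample titles. In R 4.3.3, edgeR 4.0.16 was run with filterByExpr (minimum count 10, total 15), TMM scaling, glmQLFit and glmQLFTest for genotype, with Benjamini-Hochberg adjustment over 13680 genes. The fit was tested on simulated data. CPM use TMM factors, and errors given with ± are standard deviations. The SE of a log2 fold change was derived from the test, as its size divided by the square root of the quasi-likelihood F. Same-numbered libraries deviated together from their group means (correlations of 0.289, 0.148 and 0.337 across genes), and the numbers come from the titles, so a fit with the replicate block was made. Alternatives were RLE, upper-quartile and no scaling, other filters, DESeq2 1.42.0, limma-voom (limma 3.58.1) and each library left out. The genes named were the members, the listed genes, genes beside the loci past FDR 0.05 and the 5 most alike in pattern. *Apol9a*, *Apol9b*, *1500011B03Rik*, *Ankrd13a*, *Gm43069*, *Dtx1* and *Rph3a* were named after their values were seen. Members and lists were chosen with earlier results of these data known. Some listed genes are not reported here, and the lists' counts leave them out.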

Additional observations from a re-analysis of the deposited data

How the results depend on the processing

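The number of members higher in PP2Ac-KO was 8, and lower 0, as reported and in each of the 14 alternatives, the fit with the replicate block included. Among members, listed genes other than cell type markers and genes beside the loci, that fit changed only the calls of *Ifnar1*, *Jak1* and *1500011B03Rik*. Library totals as the only scaling took the median over genes tested from -0.02 to -0.24 on the log2 scale, and there the members ran from 0.23 (*Oas1b*, edgeR adjusted p = 0.017) to 1.41 (*Oasl1*). With libraries left out in turn, the number past both thresholds ran from 2 to 6. At the low end *Oas3* was under a log2 fold change of 1 (0.983 without PP2Ac-KO replicate 1, 0.943 without PP2Ac-WT replicate 3). The difference in family share changed with the length used. From counts without length it was 7.66 percentage points for *Oasl1*, -3.89 for *Oasl2*, -0.891 for *Oas1a*, -0.852 for *Oas1b* and -0.188 for *Oas1c*, and with the longest transcript -4.41 for *Oasl2* and -1.66 for *Oas1a*. Log2 fold changes near 0 changed sign. *Akap7* was at 0.0106 under RLE scaling and DESeq2, and with libraries left out ran from -0.0707 to 0.0514, above 0 without PP2Ac-KO replicate 2 (0.00891), PP2Ac-KO replicate 3 (0.024) or PP2Ac-WT replicate 1. *Irf3* ran from -0.111 to 0.00863, above 0 without PP2Ac-WT replicate 3, and *Ifnar1* and *Jak1* were at -0.0249 and -0.074 with library totals. With library totals, *Irf3* and *Pde12* also passed the test as lower (edgeR adjusted p = 0.0255 and 0.0113), as did *1500011B03Rik* and *Ankrd13a*. Without length, the shares of *Oas3* overlapped between groups. No outlier test applies to groups of 3 libraries, and depth limits only *Oas1d*, *Oas1e*, *Oas1f* and *Oas1h* among the family.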
